A study of Mus musculus with 8 samples.

Results

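Voltage-gated sodium and calcium channels, HCN channels and the potassium channels of all classes were compared, gene by gene, between embryonic mouse retinas labelled as lacking and as keeping Ezh2. The genes were found by symbol alone. The stems Scn (sodium channel), Cacn (calcium channel), Hcn (hyperpolarization-activated channel) and Kcn (potassium channel), each followed by the usual subunit letters and numbers and no further suffix, matched 101 of the 16096 rows of the deposited gene table. These rows carry 100 symbols, because Kcnb2 is listed under 2 Ensembl identifiers. A few relatives fell outside the pattern and were not counted, among them Scn2a1, which encodes the alpha subunit Nav1.2 under an older symbol.

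RNA was sequenced from peripheral retina of C57BL/6 embryos at embryonic day 16.5. The 4 libraries labelled Pax6alpha-Cre:Ezh2fl/null (here cKO) carry 1 floxed and 1 null allele of Ezh2, and the 4 labelled Pax6alpha-Cre:Ezh2fl/+ (here control) carry 1 floxed and 1 wild-type allele. Both groups therefore carry the Cre transgene, and the controls can also lose 1 copy of Ezh2 wherever Cre acts. Pax6alpha-Cre is driven by a retinal enhancer of Pax6 and acts in the peripheral retina and not in every retinal cell, so the dissected tissue can hold cells that still have their floxed allele. Each library is 1 sample in the labels. The labels do not say which embryo or litter it came from, and p-values therefore reflect only the spread among these libraries, which may be technical.

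Voltage-gated channels open in response to membrane potential: sodium channels carry the upstroke of the action potential, calcium channels couple depolarization to transmitter release and transcription, and potassium channels repolarize the membrane and set its resting level. A channel consists of pore-forming subunits, encoded by the alpha genes, together with auxiliary subunits that control its trafficking and gating. In the retina these families are expressed as progenitors leave the cell cycle and become neurons, and inward rectifiers also serve glia. Ezh2 is the catalytic subunit of Polycomb repressive complex PRC2, which methylates histone H3 at lysine 27, a mark found over silent genes.

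The libraries held between 13994825 and 18391647 counted reads. Ezh2, the targeted gene, stood at 276, 251, 255 and 220 CPM (counts scaled to a common total by normalized library size) in the cKO libraries, against 235, 230, 197 and 207 CPM in the control libraries. These groups overlapped, with a log2 fold change of 0.21 (SE 0.07) and an adjusted p of 0.0701 by edgeR's quasi-likelihood test with Benjamini-Hochberg adjustment. An exact permutation test, two-sided, gave p = 0.0857, where 0.0286 is the smallest p that 4 against 4 libraries allow. A count over the whole gene does not check the genotype where the position of the deleted exons was not given in the sources used here. Xist counts of 1874 and 1714 marked cKO replicates 2 and 3 as female, and the other libraries had at most 4. Counts of lens crystallins reached 67 in cKO replicate 2 and 114 in control replicate 1, against at most 7 elsewhere. Pan-neuronal genes were at high levels in both groups, with Tubb3, a neuronal tubulin, at 1345 CPM in cKO and 1365 CPM in control.

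Of the 101 channel rows, 91 had enough reads to be tested, and 26 of them were higher in cKO, 0 were lower and 65 did not pass an adjusted p of 0.05 (edgeR quasi-likelihood test, adjusted over all 15014 genes tested). That is 28.6% of the channel genes, against 8.35% of all tested genes called higher. For lower calls the count of 0 stands beside 3.46% of all genes. At an unadjusted p under 0.05 there were 34 channel genes higher and 6 lower, where 13.9% of all genes were higher and 10.2% were lower, and DESeq2 called 24 higher and 0 lower, against 7.57% and 3.67% of all genes. The median log2 fold change of the tested channel genes was 0.14 with quartiles at -0.02 and 0.45, against a median of -0.01 for all genes. Values above 0 made up 71.4% of the channel genes and 47.6% of all genes. The called genes rose by 1.21-fold to 3.85-fold, and 4 of them by at least 2-fold, Kcna1, Kcna5 and Kcnt1 among these.

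Separation of the groups without any model gave a like count. In 26 channel genes all 4 cKO libraries lay above all 4 control libraries, and in 1 gene, Kcnh2, they all lay below, against 10.1% and 6.21% of all tested genes. Of the 26 separated genes, 23 were among those called. Among the other 3 were Kcnn2 and Kcnh6, with log2 fold changes of 0.17 and 0.48. Cacna2d2, Kcna2 and Kcnn1 were called although their groups overlapped. In bulk tissue, a change in the share of cells of a type and a change in RNA per cell cannot be told apart, and this holds for each gene below.

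**Figure D1:**
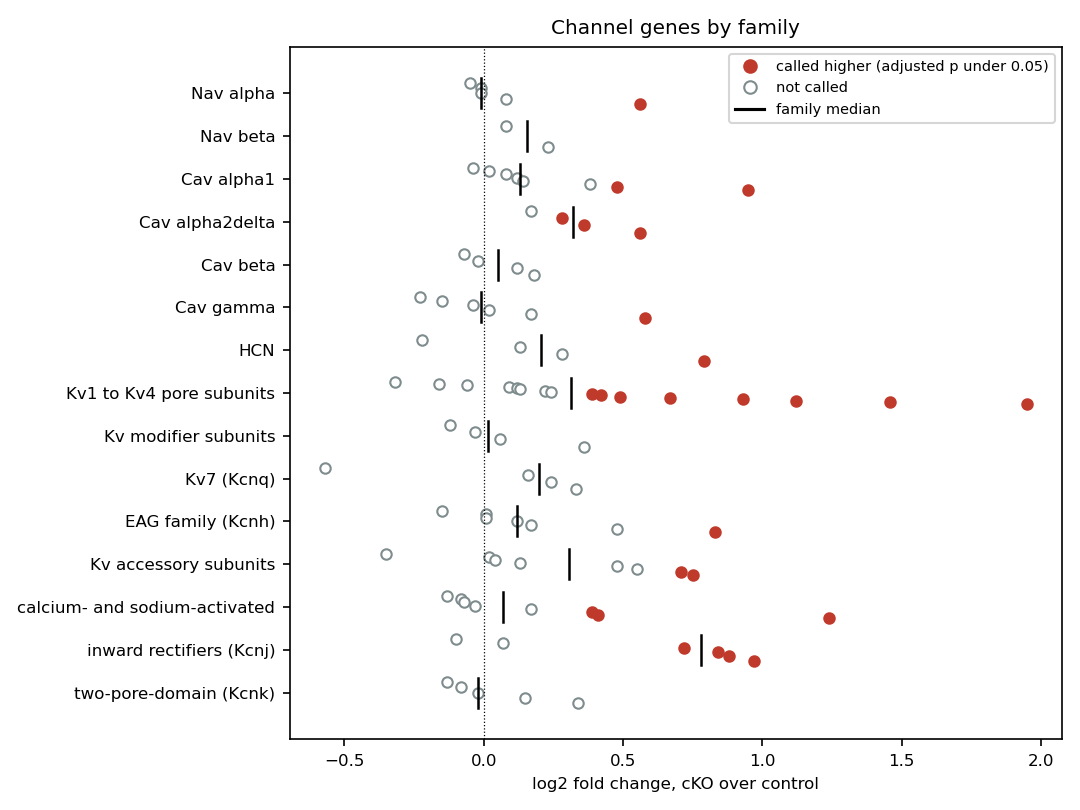
Log2 fold change of each of the 91 tested channel genes, cKO over control, by family. Filled points are genes called higher and open points are genes not called; the bars are family medians, the highest of which is 0.78 for the inward rectifiers.

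Potassium channel genes made up 18 of the 26 calls, and 58 of the 91 tested rows. By share, 31.0% of the tested potassium channel genes were called, near the 28.6% of all tested channel genes. Of all tested genes, 8.35% were called higher, and a difference between the channel classes was not tested. The calcium channels gave 6 of 22, the HCN channels 1 of 4 and the sodium channels 1 of 7. Among the potassium channels, the pore subunits of the classical voltage-gated subfamilies Kv1 to Kv4 held 8 of the 18, from 16 tested rows with a median log2 fold change of 0.31.

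Kv1 channels, encoded by the Kcna genes, activate at low voltages and set the threshold and timing of spikes. Of the 6 Kcna genes, 4 rose, beside 8.35% of all tested genes called higher. The 3 Kcna genes with the smallest p lie side by side on chromosome 6. Kcna5 (Kv1.5, ENSMUSG00000045534, chr6:126532551-126535412 on the minus strand of mm10) was at 19.8, 19.5, 16.5 and 13.8 CPM in cKO libraries, against 7.19, 6.22, 6.80 and 5.24 CPM in control libraries. The lowest cKO library was far above the highest control library. The log2 fold change was 1.46 (SE 0.13) with an edgeR adjusted p of 2.92e-06.

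Kcna1 (Kv1.1, ENSMUSG00000047976, chr6:126640397-126646384, minus strand), known for its place beside the nodes of myelinated axons, was scarce. It had 6.02, 7.66, 5.12 and 4.39 CPM in cKO libraries, against 1.95, 0.786, 1.26 and 1.95 CPM in control libraries. Every cKO library lay above every control library, and the log2 fold change of 1.95 (SE 0.24; edgeR adjusted p 6.2e-05) was the largest of the tested channel genes. Kcna6 (Kv1.6, ENSMUSG00000038077, chr6:126708329-126740674, minus strand) had 25.7, 27.1, 23.5 and 25.4 CPM in cKO libraries, against 15.6, 11.8, 14.7 and 11.8 CPM in control libraries. It rose by 0.93 on the log2 scale (SE 0.09; edgeR adjusted p 9.38e-06), again with no overlap.

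The promoter windows of this chromosome 6 group are shown because its members moved together in neighbouring positions. RefSeq windows on GRCm38.p6, from 250 bases before to 50 bases after the start, were at hand for Kcna5 and Kcna6, with CpG dinucleotides in capitals. Both genes lie on the minus strand, and the windows are chr6:126535506-126535805 for Kcna5 and chr6:126740625-126740924 for Kcna6. The Kcna5 window lies wholly upstream of the gene coordinates given above, so the RefSeq start it uses differs from theirs.
Kcna5: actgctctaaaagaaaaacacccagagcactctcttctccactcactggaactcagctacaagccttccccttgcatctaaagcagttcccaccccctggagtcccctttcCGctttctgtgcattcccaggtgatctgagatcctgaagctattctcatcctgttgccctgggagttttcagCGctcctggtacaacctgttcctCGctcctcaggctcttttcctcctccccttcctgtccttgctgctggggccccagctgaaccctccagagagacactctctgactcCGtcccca
Kcna6: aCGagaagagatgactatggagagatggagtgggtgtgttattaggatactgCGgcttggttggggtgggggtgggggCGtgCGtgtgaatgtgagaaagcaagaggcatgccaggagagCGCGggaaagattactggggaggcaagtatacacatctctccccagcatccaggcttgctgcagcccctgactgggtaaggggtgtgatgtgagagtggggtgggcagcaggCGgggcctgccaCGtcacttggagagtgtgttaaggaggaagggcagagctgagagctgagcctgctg
The Kcna5 window holds 4 CpG dinucleotides and the Kcna6 window 8, where the median over 32851 mouse promoter windows is 7. At least as many are found in 68.6% of all windows for Kcna5 and in 48.6% for Kcna6. Of the 2 half-sites of the neuronal repressor REST, searched on both strands, TTCAGCACC, present in 0.371% of all windows, was in neither. GGACAG, present in 22.2% of all windows, was in the Kcna5 window only, and such a match is a description of letters.

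Kcna2 (Kv1.2), a partner of Kv1.1 in axons, had 7.68, 6.13, 7.15 and 9.27 CPM in cKO libraries, against 5.54, 4.45, 6.24 and 5.35 CPM in control libraries. Replicate 2 of cKO was below replicate 3 of control, and the log2 fold change was 0.49 (SE 0.14; edgeR adjusted p 0.0316). That call ended without cKO replicate 1, 3 or 4 (adjusted p 0.0661, 0.0502 and 0.0854) and without control replicate 1, 2 or 4 (0.0550, 0.0999 and 0.0751). Kcna3 (Kv1.3) and Kcna4 (Kv1.4) had log2 fold changes of 0.13 (95% limits -0.17 to 0.43) and 0.22 (-0.07 to 0.51) and were not called.

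Kv3 channels, encoded by Kcnc genes, open and close fast enough for high-frequency firing. Kcnc2 (Kv3.2) and Kcnc1 (Kv3.1) were among the genes that rose. Kcnc2 was the most abundant, at 36.4, 37.0, 36.1 and 33.4 CPM in cKO libraries against 29.1, 25.9, 26.9 and 27.4 CPM in control libraries. Its groups stood apart with little spread, at a log2 fold change of 0.39 (SE 0.06; edgeR adjusted p 0.000412). Kcnc1 averaged 11.2 ± 1.09 CPM in cKO and 8.48 ± 1.24 CPM in control (SD, n = 4 each), a log2 fold change of 0.42. It was no longer called without cKO replicate 1 (edgeR adjusted p 0.0871) or control replicate 4 (0.0829). Kcnc4 (Kv3.4) was at a log2 fold change of -0.32 (95% limits -0.74 to 0.11) and was not called.

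Kcnb2 (Kv2.2), a delayed rectifier, was not called in either of its rows. They gave log2 fold changes of 0.12 and 0.24, and how the authors divided reads between them is unknown.

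The 3 Kv4 genes, Kcnd1 to Kcnd3, form rapidly inactivating A-type channels, and none passed the test (edgeR; 0 also at an unadjusted p under 0.05). Kcnd3 (Kv4.3) was the most abundant by FPKM, at 7.30 ± 0.379 FPKM in cKO and 6.74 ± 0.133 FPKM in control (SD, n = 4 each). FPKM is the deposited level scaled by gene model length and by reads per library, the scale used here to set 1 gene's level beside another's; the most abundant gene of a family is the one with the highest FPKM. By contrast, Kcnip1 (KChIP1) and Kcnip3 (KChIP3, also the calcium-binding transcription factor DREAM), calcium sensors that bind Kv4 channels, both rose. Kcnip1 had 15.5, 15, 14 and 10.9 CPM in cKO libraries and 10.4, 8.97, 6.80 and 7.02 CPM in control libraries. Kcnip3 had 8.81, 10.2, 8.92 and 10.2 CPM in cKO libraries and 5.69, 5.70, 6.80 and 5.12 CPM in control libraries. Neither gene's groups overlapped, and the log2 fold changes were 0.75 (SE 0.14; edgeR adjusted p 0.00203) and 0.71 (SE 0.11; edgeR adjusted p 0.000462). Kcnip4 was at 0.13 and the scarce Kcnip2 at 0.55 with 95% limits from -0.35 to 1.45, both not called. The other accessory genes were Kcnab1 to Kcnab3, which encode cytoplasmic Kv beta subunits, and Kcne1, which encodes a single-span partner of Kv7.1; none was called. Kcnab3 was at a log2 fold change of 0.48 (edgeR adjusted p 0.0739), and was called higher without cKO replicate 1 (0.63, adjusted p 0.00913) and with library size alone (0.51, adjusted p 0.0451). The most abundant of them, Kcnab2, was at 5.64 ± 0.381 FPKM in cKO and 5.48 ± 0.602 FPKM in control (SD, n = 4 each), a log2 fold change of 0.02 that took either sign under other settings.

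Among the 7 Kcnh (EAG, ERG and ELK) genes tested, Kcnh4, an ELK channel that opens at subthreshold voltages, rose. It had 2.90, 3.41, 3.41 and 4.32 CPM in cKO libraries, against 1.72, 2.10, 1.68 and 2.28 CPM in control libraries. No values overlapped, and the log2 fold change was 0.83 (SE 0.17; edgeR adjusted p 0.00498). Kcnh2 (ERG1), the most abundant of that family, was at 28.2, 26.4, 29.3 and 29.8 CPM in cKO libraries, against 32.0, 34.0, 30.4 and 30.0 CPM in control libraries. The groups did not overlap, yet the difference was small, at a log2 fold change of -0.15 (SE 0.06) and an edgeR adjusted p of 0.149.

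None of the 4 tested Kcnq genes (Kv7, the M-current) and none of the 4 tested modifier genes, which are silent alone and alter Kv2 channels, was called by edgeR or by DESeq2. At an unadjusted p under 0.05, 2 Kcnq genes were higher and Kcnq5 was lower, and of the modifiers Kcnv2 was higher, at a log2 fold change of 0.36. By edgeR Kcnv2 was called higher without control replicate 1 (0.47, adjusted p 0.0304) and without the lens crystallin libraries (0.49, adjusted p 0.0447). Kcnq5 averaged 1.30 CPM in cKO and 1.94 CPM in control and had the lowest log2 fold change of the tested channel genes, -0.57 (SE 0.23; edgeR adjusted p 0.131). Kcns2, the modifier with the highest level, was at a log2 fold change of 0.06 (95% limits -0.20 to 0.33).

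Potassium channels gated by calcium or sodium gave 3 calls among 8 tested genes, beside 8.35% of all tested genes called higher. Kcnt1 (Slack), a sodium-activated channel, had 1.40, 1.25, 1.12 and 1.24 CPM in cKO libraries, against 0.599, 0.589, 0.351 and 0.557 CPM in control libraries. The groups were well apart at a log2 fold change of 1.24 (SE 0.25, edgeR adjusted p 0.00373). The control libraries held 8, 9, 5 and 10 counts of Kcnt1 and the cKO libraries 26, 18, 17 and 20. Kcnt1 therefore entered the test through its cKO libraries, where it is high, and its call is to be read with that limit. Kcnma1, the BK channel pore, averaged 10.5 ± 0.783 CPM in cKO and 8.02 ± 0.483 CPM in control (SD, n = 4 each), at a log2 fold change of 0.39. Its beta subunits Kcnmb2 and Kcnmb4 were at -0.08 and -0.03 and were not called. Kcnn1 (SK1), a small-conductance calcium-activated channel, averaged 27.3 ± 3.98 CPM in cKO and 20.4 ± 1.95 CPM in control (SD, n = 4 each), a log2 fold change of 0.41 with overlapping groups. Its exons overlap those of A230052G05Rik on the opposite strand, and the labels do not say if reads were assigned by strand. The Kcnn1 call ended without control replicate 3 (edgeR adjusted p 0.0502), in male libraries alone (0.137), with sex as a covariate (0.140) and without the lens crystallin libraries (0.0810).

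The inward rectifiers, encoded by Kcnj genes, hold the resting potential and, in glia, clear potassium. Of 9 rows 6 were tested, and 4 of them rose, beside 8.35% of all tested genes called higher. The other 3 were left out for low counts, so the family median of 0.78 covers the genes that could be tested. Kcnj10 (Kir4.1), the potassium channel of Müller glia, had 4.25, 4.11, 3.02 and 5.0 CPM in cKO libraries, against 3.0, 2.03, 2.60 and 1.67 CPM in control libraries. The lowest cKO and highest control libraries nearly met, at a log2 fold change of 0.84 (SE 0.20; edgeR adjusted p 0.0107). Kcnj12 (Kir2.2) was at 2.74 to 3.40 CPM in cKO and 1.42 to 2.06 CPM in control, with a log2 fold change of 0.72. Kcnj2 (Kir2.1) was at 1.17 to 1.71 CPM in cKO and 0.458 to 1.12 CPM in control, with a log2 fold change of 0.88. Its control libraries held 15, 7, 13 and 12 counts, and Kcnj2 entered the test only with the help of cKO libraries. Kcnj3 (GIRK1), a G-protein-gated channel and the most abundant of the family, averaged 10.3 CPM in cKO and 9.87 CPM in control, a log2 fold change of 0.07 (95% limits -0.14 to 0.27).

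Kcnj11 (Kir6.2), the pore of the ATP-sensitive channel, had 1.29, 1.67, 1.44 and 1.30 CPM in cKO libraries, against 0.524, 0.786, 0.631 and 0.891 CPM in control libraries. It rose by 0.97 on the log2 scale (SE 0.24, edgeR adjusted p 0.0140) with no overlap. The control libraries held 7, 12, 9 and 16 counts of Kcnj11 and the cKO libraries 24, 24, 22 and 21. Kcnj11 therefore entered the test through its cKO libraries, and its call is to be read with that limit. The inward rectifier calls rested on few reads and numbered 1 (Kcnj10) in male libraries alone and with sex as a covariate, and 2 with DESeq2. Kcnj2 was no longer called without cKO replicate 1, 2 or 3 (edgeR adjusted p 0.0790, 0.0855 and 0.121) or control replicate 2, 3 or 4 (0.139, 0.0668 and 0.130).

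The two-pore-domain Kcnk genes, which carry background leak currents, gave 0 calls among 5 tested (edgeR; 1 higher and 1 lower at an unadjusted p under 0.05; DESeq2 also called none). Kcnk2 (TREK1), at a log2 fold change of 0.34, was called higher by edgeR without cKO replicate 4 (0.42, adjusted p 0.045), and Kcnk6 (TWIK2), left out of the test of all 8 libraries for low counts, in male libraries alone (1.67, adjusted p 0.0398). Kcnk1 (TWIK1) had the highest level of all channel genes on the FPKM scale, with 35.4, 40.1, 35.8 and 39.7 FPKM in cKO libraries and 37.6, 42.4, 41.1 and 41.2 FPKM in control libraries. These ranges overlapped, and the log2 fold change was -0.13 (SE 0.06; edgeR adjusted p 0.200).

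**Figure D2:**
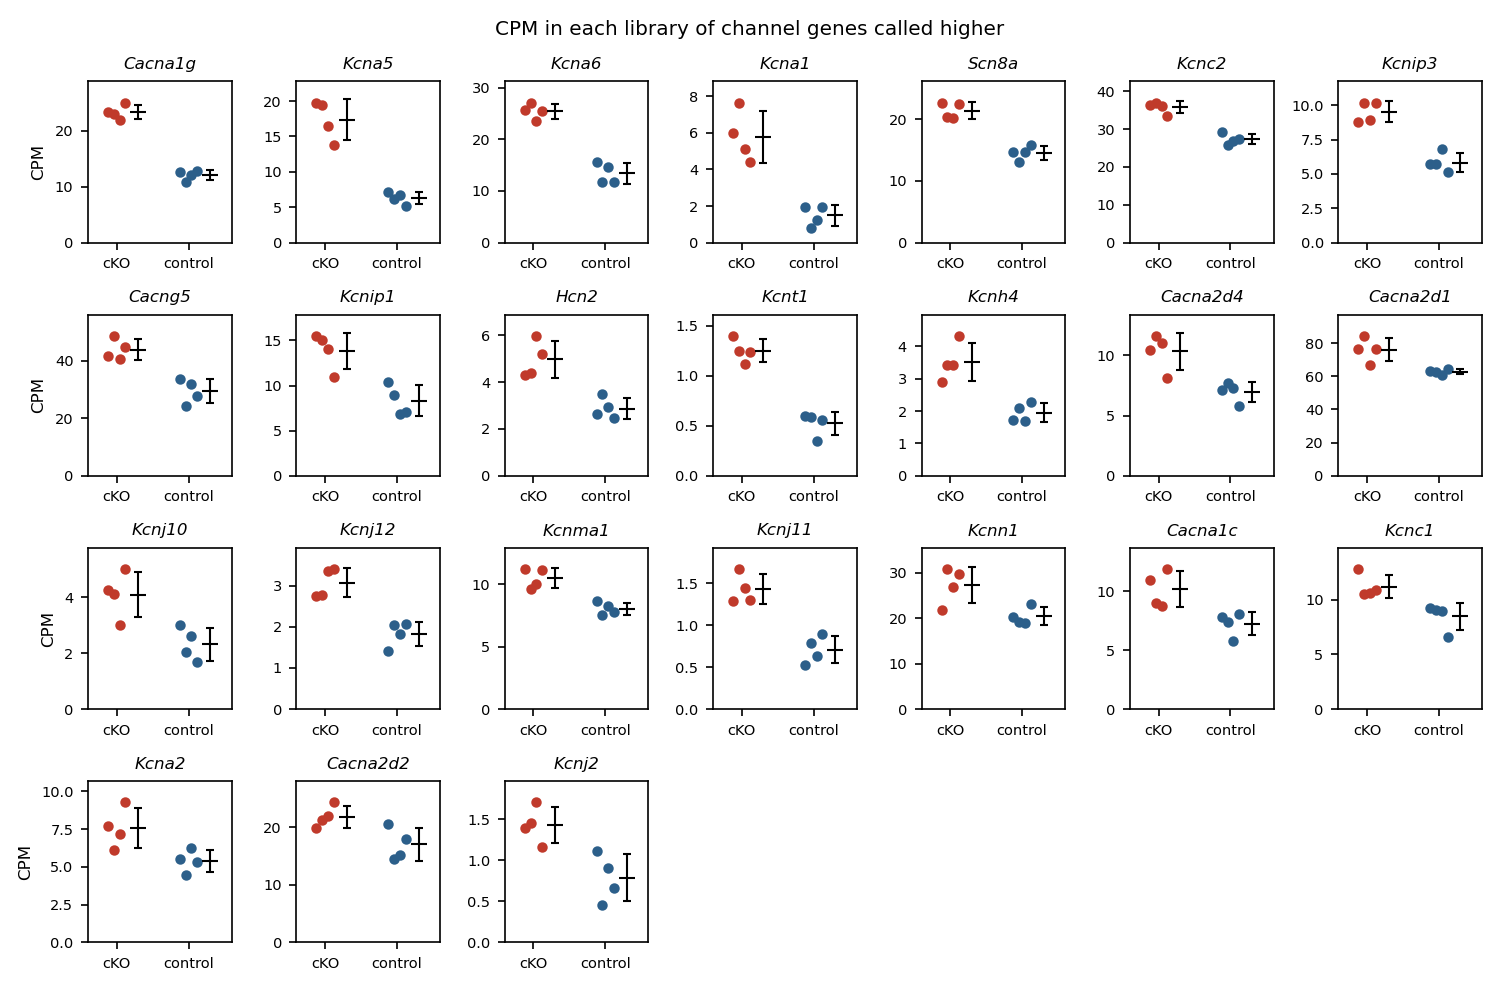
CPM of 24 channel genes called higher, in each library, with cKO left and control right; the bars show the mean and SD of 4 libraries. The groups overlap in Cacna2d2, Kcna2 and Kcnn1 and are apart in the other 21 genes.

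Calcium channel genes are given by subunit type, beside 8.35% of all tested genes called higher. The types hold few genes, and a difference between them was not tested. Alpha1 genes encode the pore, and 2 of 8 rose. Cacna1g (Cav3.1), a low-voltage-activated T-type channel, had the smallest p of the channel genes, with 23.3, 23.0, 21.9 and 25 CPM in cKO libraries, against 12.6, 10.8, 12.1 and 12.8 CPM in control libraries. The libraries were tight within each group, and the log2 fold change was 0.95 (SE 0.08; edgeR adjusted p 1.09e-06). Not all T-type genes passed the test. Cacna1h (Cav3.2), the most abundant alpha1 gene, averaged 6.81 ± 0.961 FPKM in cKO and 6.32 ± 0.459 FPKM in control (SD, n = 4 each), a log2 fold change of 0.08 (95% limits -0.08 to 0.24). Cacna1i (Cav3.3) was at 0.38 (0.01 to 0.75) with an edgeR adjusted p of 0.195.

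Cacna1c (Cav1.2), an L-type channel, averaged 10.2 ± 1.53 CPM in cKO and 7.27 ± 1.01 CPM in control (SD, n = 4 each), a log2 fold change of 0.48 (SE 0.13; edgeR adjusted p 0.0206). It lost its call without cKO replicate 1 or 4 (adjusted p 0.0606 and 0.0578) or control replicate 3 (0.0670). The channels best known for transmitter release, Cacna1a (P/Q type) and Cacna1b (N type), were at log2 fold changes of 0.14 (95% limits -0.11 to 0.38) and 0.02 (-0.10 to 0.14), and neither was called.

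Alpha2delta subunits, which bring calcium channels to the surface, gave 3 calls in 4 genes with a median log2 fold change of 0.32. Cacna2d1, the most abundant of them, had 76.6, 84.4, 66.8 and 76.6 CPM in cKO libraries and 63.4, 62.5, 60.5 and 64.2 CPM in control libraries. The groups were apart, but the step was the smallest among the called channel genes, at 0.28 on the log2 scale (SE 0.06; edgeR adjusted p 0.0100). Cacna2d4, the subunit of photoreceptor and bipolar cell synapses, averaged 10.3 CPM in cKO and 6.98 CPM in control, at 0.56. Cacna2d2 averaged 21.8 CPM in cKO and 17.0 CPM in control, at 0.36. In male libraries alone and with sex as a covariate, Cacna2d1 was the 1 gene still called. Cacna2d1 in turn lost its call without the lens crystallin libraries, at 0.23 (edgeR adjusted p 0.0524). Cacna2d2 also lost its call without cKO replicate 2, 3 or 4 (edgeR adjusted p 0.0525, 0.0754 and 0.0883) or control replicate 2, 3 or 4 (0.111, 0.111 and 0.0517).

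Cytoplasmic beta subunits gave 0 calls among 4 genes (edgeR; 0 also at an unadjusted p under 0.05, and none by DESeq2). Cacnb3, the third most abundant channel gene, was at 32.2 ± 2.79 FPKM in cKO and 32.0 ± 1.27 FPKM in control (SD, n = 4 each), with a log2 fold change of -0.02 (95% limits -0.15 to 0.12). Of the gamma genes, several of which encode AMPA receptor partners, Cacng5 alone passed the test among 6. It had 41.7, 48.7, 40.5 and 44.7 CPM in cKO libraries, against 33.8, 24.3, 31.8 and 27.9 CPM in control libraries. The groups were apart, at a log2 fold change of 0.58 (SE 0.09; edgeR adjusted p 0.000544). Its neighbour on chromosome 11, Cacng4 (gamma-4), had 110, 112, 109 and 118 CPM in cKO libraries and 136, 123, 124 and 115 CPM in control libraries. Those ranges overlapped, and the log2 fold change was -0.15 with limits of -0.26 to -0.04 and an edgeR adjusted p of 0.0823. Without control replicate 4, Cacng4 was called lower, at -0.19 (adjusted p 0.0462).

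Of the sodium channel genes, 1 alpha gene rose. Scn8a (Nav1.6), the channel that gathers at mature axon initial segments and nodes, had 22.7, 20.3, 20.2 and 22.4 CPM in cKO libraries, against 14.7, 13.0, 14.7 and 15.8 CPM in control libraries. The groups were apart, and Scn8a rose by 0.56 on the log2 scale (SE 0.08; edgeR adjusted p 0.000208). Scn3a (Nav1.3), the channel typical of embryonic neurons, was the most abundant of the 5 matched alpha genes, which leave out Scn2a1. It had 57.7, 71.3, 52.1 and 60.5 CPM in cKO libraries and 65.1, 54.6, 63.7 and 59.6 CPM in control libraries. The groups overlapped throughout, with a log2 fold change of -0.01 (95% limits -0.19 to 0.17). Scn1a was at 0.08 and Scn9a at -0.05 on the log2 scale, and neither was called. Of the beta subunits, Scn3b was the most abundant at 15.1 ± 0.492 FPKM in cKO and 14 ± 1.08 FPKM in control (SD, n = 4 each), a log2 fold change of 0.08, and Scn2b was at 0.23; neither was called.

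HCN channels carry the pacemaker current that opens on hyperpolarization. Hcn2 had 4.30, 4.39, 5.97 and 5.19 CPM in cKO libraries, against 2.62, 3.47, 2.95 and 2.45 CPM in control libraries. It rose by 0.79 on the log2 scale (SE 0.16; edgeR adjusted p 0.00335) with no overlap. Hcn4, the most abundant HCN gene by FPKM, was at 20.4, 15.9, 19.2 and 23.5 CPM in cKO libraries and 24.1, 21.2, 24.6 and 22.3 CPM in control libraries. The groups overlapped through cKO replicate 4, and the log2 fold change was -0.22 (SE 0.10; edgeR adjusted p 0.188). Without that library Hcn4 was called lower, at -0.31 (adjusted p 0.0384). Hcn3 was at 0.28 and not called, except without cKO replicate 2, when it was called higher at 0.34 (edgeR adjusted p 0.0441).

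The calls were then counted by level in control retina. Below 1 CPM, 4 of the 5 tested channel genes were higher, where 21.4% of all genes at that level were. Between 1 and 5 CPM it was 6 of 30, against 12.9% of all genes. Between 5 and 20 CPM it was 12 of 36 (33.3%), against 10.9%. At 20 CPM or more it was 4 of 20, against 4.43%. The count below 1 CPM was 2 with DESeq2 and with sex as a covariate, and that at 20 CPM or more was 2 without the lens crystallin libraries. Another 10 rows below 1 CPM were left out for low counts. A gene that scarce in control could enter the test with the help of its cKO libraries, as the called Kcnt1, Kcnj11 and Kcnj2 did. The count of 4 of 5 below 1 CPM is to be read with that limit. Of those 10 rows, 9 had a higher mean in cKO, and the matching share over all genes left out was not computed. Of all tested genes below 1 CPM in control, 76.3% had a log2 fold change above 0. Kcnh3, an ELK channel, was at 0.506 CPM in cKO and 0.132 CPM in control. Its exons overlap those of Mcrs1 on the opposite strand, and without knowledge of strand their reads cannot be told apart. The control libraries enter both the level and the fold change. With the mean of all 8 libraries in its place, the counts were 1 of 2, 8 of 28, 13 of 41 and 4 of 20 from low to high level, against 10.5%, 13.5%, 11.8% and 4.99% of all genes.

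**Figure D3:**
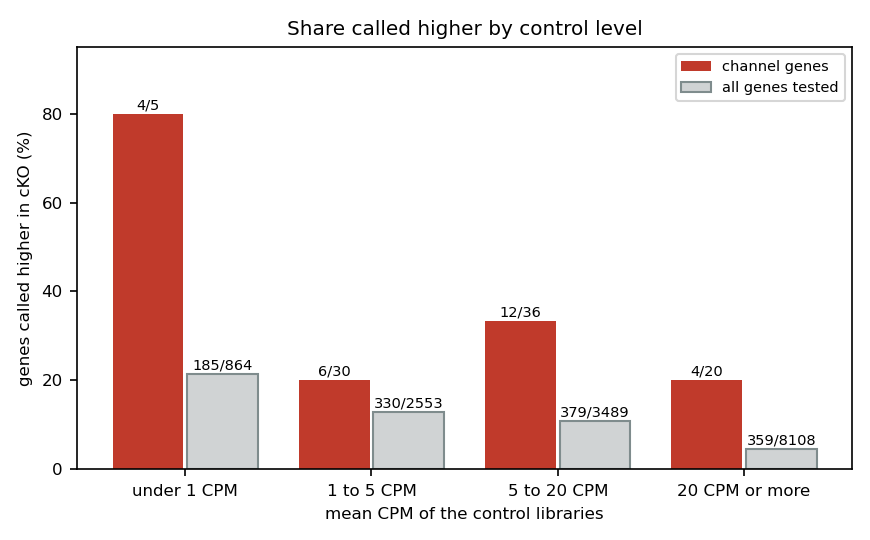
Share of genes called higher in cKO by mean control CPM, for channel genes and for all tested genes of the same level; numbers over the bars are genes called over genes tested. The lowest class holds 5 tested channel genes, and 10 more were not tested.

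On the FPKM scale, which allows for gene length, the 5 highest channel genes over all libraries were Kcnk1, Cacng4, Cacnb3, Scn3b and Cacng7, a gamma subunit, and none was called higher. Of the 10 highest, 2 were called, Cacng5 and Cacna2d1, and of the 20 highest, 5. The median control level was 1.18 FPKM for the called channel genes and 1.58 FPKM for those not called. By control FPKM, 12 of 33 were called higher below 1, against 21.6% of all genes at that level, and 12 of 44 from 1 to 5, against 460 of 4188. From 5 to 20 FPKM it was 2 of 11, against 4.36%, and at 20 FPKM or more 0 of 3, against 2.59% (edgeR; DESeq2 also 0, and 0 higher and 2 lower at an unadjusted p under 0.05).

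**Figure D4:**
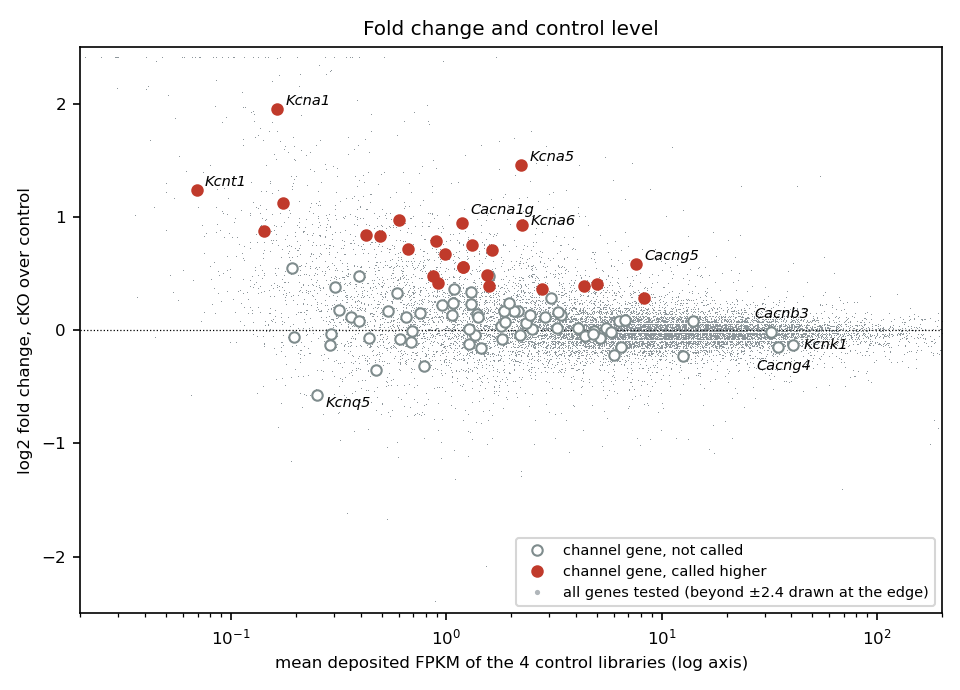
Log2 fold change against mean control FPKM for the tested channel genes, over all tested genes as dots. Called genes such as Kcna1 and Kcnt1 lie at low control levels, and Kcnk1, Cacng4 and Cacnb3 at the high end lie near 0.

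By position, stretches of chromosomes 6, 7 and 11 are described, singled out after the values were seen. On chromosome 6, 5 of 6 channel genes were higher (all but Kcnd2), against 13.1% of all genes on it, and on chromosome 11, 6 of 10, against 9.15%. Kcna5, Kcna1 and Kcna6 span 208 kb. Gm26673, an antisense gene whose exons overlap those of Kcna6, was higher too, at 0.84 on the log2 scale, and without knowledge of strand its reads and those of Kcna6 cannot be told apart. The nearest tested genes on either side, Ntf3 (0.14) and Ndufa9 (-0.01), were not called. Ezh2 is on the same chromosome, 78937210 bases from Kcna5.

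A second chromosome 6 stretch held Cacna1c and Cacna2d4. Dcp1b, which overlaps the start of Cacna1c on the opposite strand, was at a log2 fold change of -0.06, Lrtm2, which lies within Cacna2d4, was at 0.04, and Adipor2, next to it, at -0.03; none was called, while Wnt5b beyond them was higher at 0.49. On chromosome 7, Kcnj11 lies beside Abcc8, which encodes SUR1, the sulfonylurea receptor that completes the ATP-sensitive channel. Abcc8 had 3.71, 3.62, 3.80 and 3.09 CPM in cKO libraries, against 0.899, 0.917, 0.561 and 0.724 CPM in control libraries. Its groups were far apart at a log2 fold change of 2.19 (SE 0.19; edgeR adjusted p 2.91e-06). The next tested genes, Ush1c at a log2 fold change of 0.99 and Kcnc1 at 0.42, were higher as well, and Nomo1 on the other side was at -0.08 and not called.

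**Figure D5:**
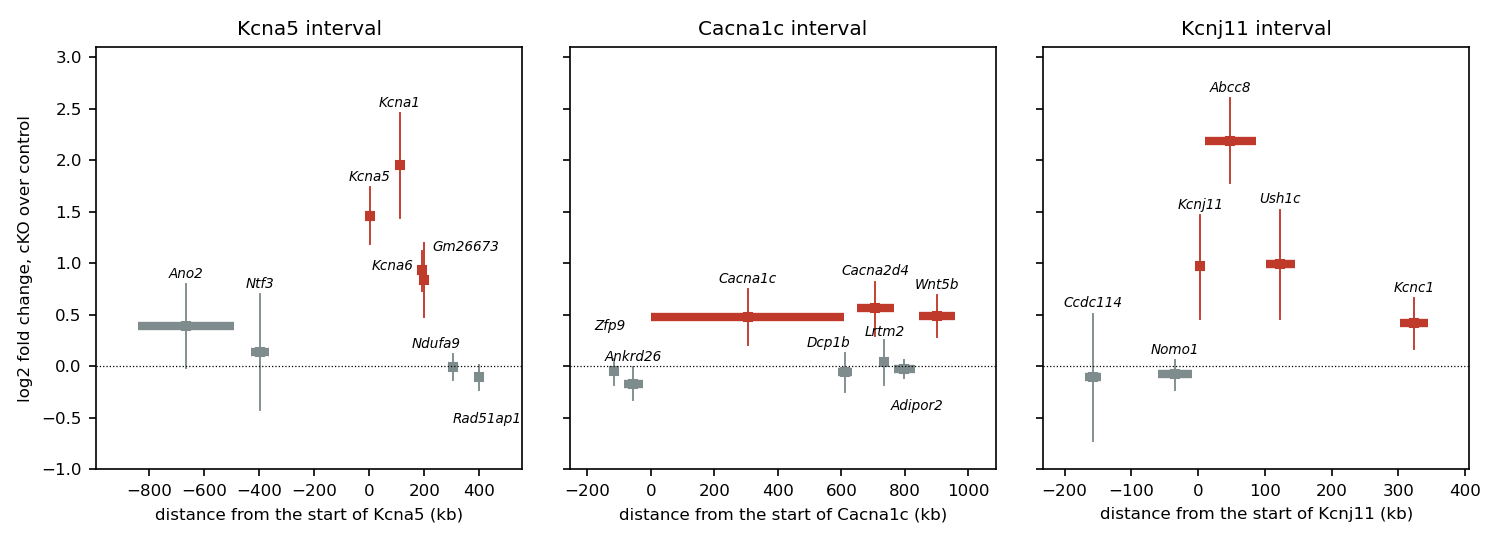
Log2 fold change of tested genes around 3 groups of channel genes, by distance in kilobases; thick bars span the gene, squares mark its middle and thin lines are 95% limits. Red genes were called higher, as Kcna5, Kcna1 and Kcna6 were, and gray genes such as Ndufa9 and Adipor2 were not called.

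Partners of these channels moved in both directions. The counts of each list that follow stand beside 8.35% of all tested genes called higher and 3.46% called lower. Of 4 fibroblast growth factor homologues that bind sodium channels, Fgf13 fell by 0.31 on the log2 scale and the others were not called. In the NALCN leak channel complex, Unc79 (log2 fold change 0.31) and Fam155a (0.41) rose and the pore gene Nalcn was at 0.04, with 2 of 4 tested called. Of 18 tested genes of the axon initial segment and node, 3 rose and 3 fell. Cntnap2 (Caspr2), which clusters Kv1 channels beside nodes, rose by 0.62 on the log2 scale, to 128 CPM in cKO, against 83.2 CPM in control. Cntnap2 is on chromosome 6, as the targeted gene Ezh2 is, and an effect of its position was not tested. Its partner Cntn2 (TAG-1) fell by 0.69 on the log2 scale, to 144 CPM in cKO, against 233 CPM in control. Ank3 (ankyrin-G), the organizer of the initial segment, was at -0.10 and not called.

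Among 11 other auxiliary genes, Abcc8, Lrrc38, a BK channel gamma subunit (log2 fold change 1.41), and Gem, a GTPase that inhibits calcium channels (0.83), rose and Dpp6, a partner of Kv4 channels, fell by 0.26. The other cation channels tested, 33 genes, gave 6 higher and 2 lower with a median of 0.03. The chloride channels gave 3 higher and 2 lower of 19, led by Ano3, of the anoctamin family, at a log2 fold change of 1.67. The sodium pump genes gave 3 higher and 1 lower of 9, with Atp1b1, a beta subunit, higher at a log2 fold change of 0.34. Of 12 genes of the REST repressor complex, 1 was called: Rcor2, which encodes a co-repressor, fell by 0.26 on the log2 scale; Rest itself was at -0.12 with an edgeR adjusted p of 0.176.

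Cell type markers moved beside the channel genes, and their part in the channel results was not tested. Of all tested genes, 8.35% were higher and 3.46% lower. Summed pan-neuronal markers overlapped, at 5810 to 6330 CPM in cKO and 5730 to 6250 CPM in control, with 2 of 16 genes higher and 1 lower. Amacrine cell markers summed to 480 to 526 CPM in cKO against 373 to 392 CPM in control, with 6 of 12 genes higher. Photoreceptor markers summed to 901 to 995 CPM in cKO against 772 to 836 CPM in control, with 8 of 10 higher. Progenitor markers summed to 8690 to 9780 CPM in cKO against 9840 to 11300 CPM in control, with 5 of 15 lower. In these 3 lists the summed ranges did not overlap.

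Ganglion cell markers overlapped at 1550 to 1680 CPM in cKO and 1530 to 1710 CPM in control, with 4 higher and 2 lower of 12. Müller glia markers, a list that includes Kcnj10, overlapped at 2760 to 2950 CPM in cKO and 2750 to 3100 CPM in control, with 5 higher and 2 lower of 11. Horizontal cell markers gave 2 higher and 2 lower of 6, at 204 to 243 CPM in cKO and 227 to 239 CPM in control. Of cells from outside the neural retina, microglia markers were at 48.6 to 56.0 CPM in cKO and 35.6 to 42.7 CPM in control (4 of 10 higher). Endothelial markers were at 269 to 320 CPM in cKO and 335 to 363 CPM in control, most of it Kdr, which retinal progenitors also express (2 higher and 1 lower of 5).

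Mesenchyme markers reached 27.1 to 81.5 CPM in cKO and 22.8 to 53.2 CPM in control (4 of 9 higher). Skeletal muscle markers, of interest because muscle uses several of these channels, were at 9.24 to 33.3 CPM in cKO and 9.97 to 18.4 CPM in control with 0 of 6 called (edgeR; 1 higher at an unadjusted p under 0.05). Pericyte and smooth muscle (1 of 7 higher) and Schwann and oligodendrocyte lineage markers (1 higher and 1 lower of 5) overlapped between groups. Lens (2 tested), erythroid (6 tested) and pigment epithelium (5 tested) lists gave no call in either direction by edgeR, and 0 at an unadjusted p under 0.05.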

How the data were processed

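The tools named in the submitters' processing notes are Novoalign 2.08.01 and DESeq2, with mm10 as the build. The counter, annotation release, strand setting and filter were not given in the sources used here. By the authors, 1 table was deposited with whole-number counts per gene and library, not normalized, FPKM values, a log2 ratio and an adjusted p on a score scale not named in the header. The counts were used for all tests and the deposited FPKM values for levels between genes; the deposited log2 ratio and score were not used. The lowest sum of counts over the libraries in the table was 18, so genes with few reads are missing from it.

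Counts were tested with edgeR 4.0.16 in R 4.3.3: TMM, filterByExpr with a minimum count of 10, glmQLFit and glmQLFTest on 4 cKO against 4 control libraries without covariates, Benjamini-Hochberg adjustment over 15014 genes and a call at an adjusted p under 0.05. The genes tested held 99.9% of all counts. CPM uses normalized library sizes (factors 0.9545 to 1.0356), except that marker sums divide by total counts. The limit of 3 counts equals 0.161 to 0.225 CPM, by library. The procedure was tested on simulated data. DESeq2 1.42.0 was an alternative. Coordinates and exon overlaps came from GENCODE M21, matched by Ensembl identifier for 15833 rows; promoter windows came from RefSeq. Only 68.0% of the channel symbols had a promoter window, so a comparison of promoter features between called and other genes was void and is not given.

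Library pairs within a group differed by a chi-square of 4.68 to 24.0 per degree of freedom, so none was taken for a repeat. Genes, families and lists were chosen with earlier results of these data known. Named genes were the 14 called with the smallest p and, in each family, the gene with the highest mean FPKM; the other 10 called genes outside that rule, their neighbours and further members were named after their values were seen. Certain genes are counted in the totals but not reported singly here. Embryo sex was read from Xist. Alternatives were other normalizations, filters, DESeq2, a replicate block, sex, lens counts and leaving out each library.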

Additional observations from a re-analysis of the deposited data

Results flagged for a closer look

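Single libraries stood apart from the other 3 of their group in 5 of 78 sets of 4 libraries examined over the named channel genes, by the gap to the nearest library against the range; chance gives about 1 in 20. Kcnc1, a fast Kv3 channel that was called higher, had 6.63 CPM in control replicate 4, against 8.98 to 9.21 CPM in the other controls, and its call ended without that library. Kcnt1, a sodium-activated potassium channel, had 0.351 CPM in control replicate 3, against 0.557 to 0.599 CPM in the other controls, and stayed called without it. Cacnb3, a calcium channel beta subunit, had 86.8 CPM in cKO replicate 1, against 103 to 105 CPM in the other cKO libraries. Kcnj3, a G-protein-gated inward rectifier, had 9.31 CPM in cKO replicate 3, against 10.5 to 10.7 CPM in the other cKO libraries. Kcnab2, a Kv beta subunit, had 36.9 CPM in control replicate 3, against 28.5 to 29.7 CPM in the other controls. Cacnb3, Kcnj3 and Kcnab2 were not called with or without these libraries.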

How the results depend on the processing

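Over 17 alternatives the channel genes called higher numbered 20 (sex as a covariate) to 27 (library size alone), with 21 in male libraries alone, 24 with DESeq2 and 22 to 26 with 1 library left out. Of the 26 calls, 16 were made in every alternative, 10 were lost in at least 1 and 0 changed direction. Channel genes called lower numbered 0, except for 0 to 1 with 1 library left out: Hcn4 without cKO replicate 4, Cacng7 (-0.30) without control replicate 3 and Cacng4 without control replicate 4. Genes called higher under an alternative and not otherwise were Kcnab3, Kcnh3 (1.89 with no filter), Kcnk6, Kcnv2, Hcn3 and Kcnk2. Over all genes, lower calls numbered 520, against 273 with library size alone, 255 in male libraries alone, 246 with sex as a covariate, 323 without the lens crystallin libraries and 329 to 667 with 1 library left out. Higher calls over all genes numbered 1253, against 800 in male libraries alone and 795 with sex as a covariate. The higher share of all calls was 70.7%, and 82.5% with library size alone. Uncalled genes near 0 changed sign: with library size alone Cacnb3 and Scn3a were at 0.01 on the log2 scale, in male libraries alone Kcns2 was at -0.0043 and Kcnab2 at -0.07, with sex as a covariate at -0.0040 and -0.07, and without the lens crystallin libraries Kcnab2 was at -0.04. With 1 library left out, Cacnb3 ran from -0.05 to 0.05, Scn3a from -0.10 to 0.06, Kcnab2 from -0.02 to 0.11, Kcnj3 from -0.01 to 0.11 and Kcns2 from -0.02 to 0.17. The cause of these shifts was not tested. Correlations between libraries of the same replicate number ran from -0.069 to 0.228, over 0.1 in 2 of 4 pairs. Replicates 1 and 4 gave 0.228 and 0.177, and cKO replicate 3 with control replicate 2 gave 0.163. Such values do not settle if the numbers pair the samples. With the numbers as a replicate block 25 channel genes were higher and 0 lower. The 10 channel rows left out of the test had few reads, and a difference there was not detectable at this depth.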
